A study of Phalaenopsis aphrodite subsp. formosana with 4 samples.

Results

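Small RNAs of leaves of the moth orchid Phalaenopsis aphrodite subsp. formosana were compared between plants kept cool and plants kept warm. The low temperature-treated leaf library (CL) came from strain M1624 plants whose light and dark temperatures were 24°C and 18°C, and the untreated leaf library (NL) from M1624 plants at 32°C and 27°C. Both sets of plants had first grown at 28°C for 7 to 8 months, and their leaves were collected every 0.5 months between month 0 and month 2. Small RNA of 20 to 25 nt was cut from a gel, and each condition gave 1 library, so the collection times cannot be separated. The cooler regime is the one that lets the flower stalk form, and the comparison asks which miRNAs of leaves differ between the regimes. The tables hold only reads that matched a known miRNA of miRBase release 15, with no leaf transcripts among them, so the tissue label could not be checked against markers.

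A member of the comparison was any sequence, or any miRNA family, with at least 100 reads summed over both leaf libraries. Sequences were put into families by the number in the name of their best match, so that miR156a and miR156b fall together. The limit kept 154 of 7210 sequences and 25 of 303 families in the leaf libraries, out of 11129 sequences in the 4 libraries of the series. Sequences near the limit had 100 summed reads just inside and 96 just outside, and families had 110 and 97. The kept sequences took 95.8% of the matched reads of CL and 94.8% of those of NL, and none of them was at 0 in either library.

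Plant miRNAs are cut from hairpin precursors by DICER-LIKE enzymes, methylated at the 3′ end and loaded into ARGONAUTE proteins, which cleave or block target transcripts that pair with them. The bases near the 5′ end, often called the seed, pair most strictly, and the first base guides the choice of ARGONAUTE. A single precursor can give several forms that differ in start, end or length, known as isomiRs, and related precursors of a family can give sequences that differ inside. Families of leaves that mark developmental age, such as miR156 and miR172, are known from Arabidopsis to act in opposite directions on the passage to flowering.

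Matched reads numbered 404345 in CL and 226523 in NL, which was 5.46% of the clean reads of CL and 3.15% of those of NL. Levels below are reads per 1000000 clean reads (RPM) and the ratio is that of CL over NL. On the matched scale, reads were counted per 1000000 matched reads instead. The interval in brackets is the exact conditional binomial 95% interval of the ratio. With 1 library a side no replicate check exists, and each ratio compares these libraries and not the temperatures. Intervals cover counting error only, and PCR copies without molecular identifiers are not independent molecules. By RPM, all matched reads together had a ratio of 1.74 (1.73 to 1.75), so every ratio by RPM lies above the same ratio on the matched scale by 0.80 in log2. Without miR528 the matched reads had a ratio of 1.31. Both scales are given, since the choice of scale sets the direction of several families. A ratio above 1.5 was called higher in CL and a ratio below 0.667 lower in CL.

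The most abundant sequence of each family over both libraries served as its reference, and the 9 families with the most forms are set out here because all later positions count from their 5′ ends. Bases 2 to 8 are in capitals, and all sequences were read from the deposited tables.
miR528 reference: uGGAAGGGgcaugcagaggag
miR168 reference: uCGCUUGGugcaggucgggac
miR167 reference: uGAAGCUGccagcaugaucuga
miR166 reference: uCGGACCAggcuucauucccc
miR535 reference: uGACAACGagagagagcacgc
miR156 reference: cUGACAGAagauagagagcac
miR172 reference: cGAAUCUUgaugaugcugcau
miR894 reference: gUUUCACGucggguucacca
miR164 reference: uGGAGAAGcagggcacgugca

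Of the 154 sequences, 63 were higher in CL by RPM, which is 40.9% of them, and 20 were lower, which is 13.0%. On the matched scale 38 were higher (24.7%) and 61 lower (39.6%). All 37 kept sequences of miR528 were among the 63, and of the 117 sequences of other families 26 were higher and 20 lower by RPM. Of the 37, 27 carried a single substitution, each at 0.0537% to 0.248% of the reference reads in CL and 0.0402% to 0.239% in NL. Whether these are read errors of the reference was not tested, so the 37 cannot be counted as independent members. Over the 154 sequences the ratio ran from 0.193 to 8.19 with a median of 1.35, or 0.775 on the matched scale. The plot of single sequences shows miR528 above the band of ratios near 1 over its whole range of levels, with miR172 and some miR166 forms below it.

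**Figure D1:**
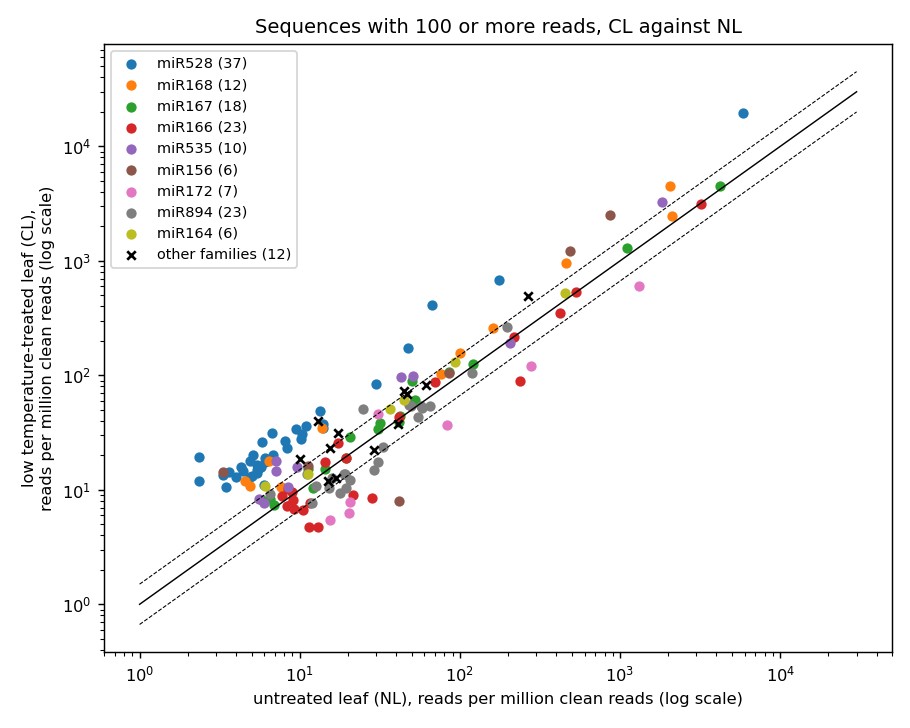
RPM of the 154 sequences with 100 or more summed reads, CL on the vertical and NL on the horizontal axis, both log scales, coloured by family with the number of sequences in brackets. The solid line marks equal levels and the dashed lines ratios of 1.5 and 0.667; all 37 miR528 sequences lie above the upper dashed line.

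Among the 25 families, 11 were higher in CL by RPM (44.0%) and 1 was lower (4.0%), whereas 2 were higher (8.0%) and 9 lower (36.0%) on the matched scale. The families higher on both scales were miR528 and miR2911, and miR172 was lower on both. The median family had a ratio of 1.40 by RPM and 0.805 on the matched scale. The plot of family ratios shows how far each family moves between the scales.

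**Figure D2:**
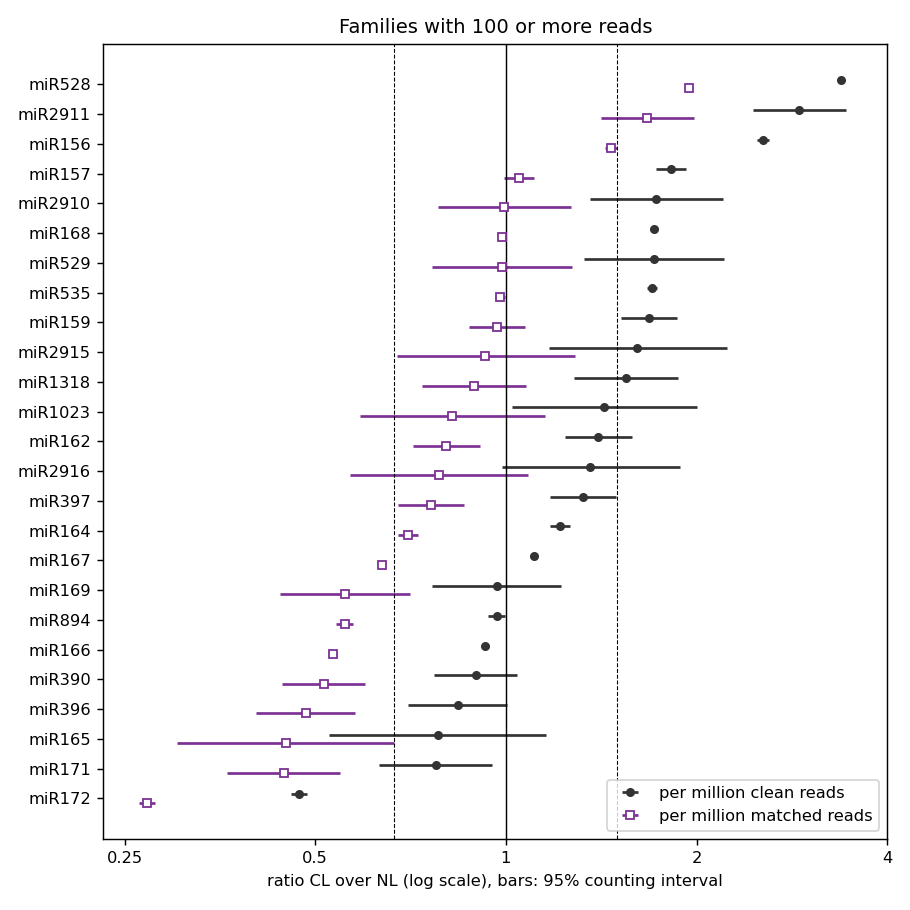
Ratio CL over NL of the 25 families with 100 or more summed reads, log scale, ordered by the ratio by RPM. Filled circles are ratios by RPM and open squares those on the matched scale, with bars for the 95% counting interval; miR528 and miR2911 lie above 1.5 and miR172 below 0.667 with both symbols.

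Among families of developmental phase change all 5 listed families were kept, 4 of which were higher by RPM and 1, miR172, lower, beside 44.0% and 4.0% of all 25 families, with a median of 1.71 against 1.40. On the matched scale none was higher and 1 was lower, with a median of 0.985 against 0.805. These counts and medians take miR156 and miR157 as separate families, though the miR157 sequence is the miR156 reference without its first base. They also include miR529, whose most abundant form differs from its best match by 4 mismatches and gaps. miR156 and miR157 cleave transcripts of SPL transcription factors in Arabidopsis and delay the adult phase. The miR156 reference had 18459 reads (2495 RPM) in CL and 6210 reads (862 RPM) in NL, a ratio of 2.89 (2.81 to 2.98), or 1.67 on the matched scale. The form with the sequence known from Arabidopsis miR156a had 9067 reads in CL and 3527 in NL, a ratio of 2.50, or 1.44 on the matched scale. It lacks the first base of the orchid reference and carries U12G and A15U. These forms were thus both at higher RPM in CL, and both had a ratio above 1 on either scale.

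The sequence named miR157, with 3628 reads in CL and 1928 in NL, equals the miR156 reference without its first base. The pair is printed to show this.
miR156 reference: cUGACAGAagauagagagcac
miR157: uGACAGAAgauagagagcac
Its ratio was 1.83 (1.73 to 1.94), or 1.05 on the matched scale, against 2.89 for the form that keeps the extra C. The loss of the C moves bases 2 to 8 by a position, and the miR157 form shares them with the Arabidopsis form of miR156. A shorter start of the Arabidopsis form, gACAGAAGagagugagcac, had 105 reads in CL and 24 in NL, a ratio of 4.26 (2.71 to 6.94). The same form with a U added at its start, uUGACAGAagagagugagcac, had 120 reads in CL and 81 in NL and a ratio of 1.44, or 0.830 on the matched scale. Joining miR157 to miR156 and moving 2 sequences out that lie closer to miR535, described next, left the miR156 ratio at 2.55.

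miR535 is a family of mosses and many flowering plants that resembles miR156 and is known to target SPL transcripts in rice. Its reference had 24177 reads (3268 RPM) in CL and 13241 (1839 RPM) in NL, a ratio of 1.78 (1.74 to 1.82), or 1.02 on the matched scale. Starts shortened by 1 base had a ratio of 1.93 (728 reads in CL and 368 in NL) and starts shortened by 2 bases 2.54 (133 reads in CL and 51 in NL). The forms with changes at positions 5 and 7 went apart, and they are shown with the changed bases in capitals.
miR535 with C7A: ugacaaAgagagagagcacgc
miR535 with A5G and C7U: ugacGaUgagagagagcacgc

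The C7A form had 1423 reads in CL and 1474 in NL, a ratio of 0.940 (0.873 to 1.01). The form with A5G and C7U had 723 reads in CL and 311 in NL, a ratio of 2.26 (1.98 to 2.59). Both changes fall within bases 2 to 8, so these forms do not share a seed with the reference. A further pair, named miR156 by best match with 3 mismatches and gaps, lies on the miR535 reference with C7A, an added first base and a missing last base. They differ from each other in that first base alone, and bases 2 to 8 are in capitals.
U-start form: uUGACAAAgagagagagcacg
C-start form: cUGACAAAgagagagagcacg
The U-start form had 770 reads in CL and 617 in NL, a ratio of 1.21 (1.09 to 1.35), or 0.699 on the matched scale. The C-start form had 59 reads in CL and 298 in NL, a ratio of 0.193 (0.143 to 0.256), the lowest of the 154 sequences. A C-start relative that is 2 bases shorter at the 3′ end, cUGACAAAgagagagagca, was read 0 times in CL and 15 times in NL, the most reads of any sequence found in NL but not in CL. A count of 0 allows up to 3 reads. The family totals of miR156 (30060 reads in CL and 11479 in NL) and of miR535 (28859 in CL and 16511 in NL) do not show these forms. miR529, known as a further SPL regulator of monocots, had 137 reads in CL and 72 in NL for its most abundant form. That form had a ratio of 1.85, or 1.07 on the matched scale, and differs from its best match by 4 mismatches and gaps.

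miR172 represses APETALA2-like factors and promotes flowering in Arabidopsis. Its reference, which starts with C, had 4490 reads (607 RPM) in CL and 9491 (1317.9 RPM) in NL, a ratio of 0.460 (0.444 to 0.477), or 0.265 on the matched scale. Of the 7 kept forms 6 were lower in CL on both scales, and the form that was not is printed first, followed by others of the family, with the bases that differ from the reference in capitals.
A-start form: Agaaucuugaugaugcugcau
A-start form with U7A and U21A: AgaaucAugaugaugcugcaA
A-start form with U7A: AgaaucAugaugaugcugcau
reference with an added U: cgaaucuugaugaugcugcauU

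The A-start form, which has the sequence of Arabidopsis miR172a, had 339 reads in CL and 221 in NL, a ratio of 1.49 (1.26 to 1.78), or 0.859 on the matched scale. It differs from the reference by C1A alone, outside the seed. Its ratio was just short of the limit for a call, with an interval above that of the C-start reference, and both were below 1 on the matched scale. The A-start form with U7A and U21A had 897 reads in CL and 1995 in NL, a ratio of 0.438. That with U7A but not U21A had 40 reads in CL and 111 in NL, a ratio of 0.351. The reference with an added U had 46 reads in CL and 147 in NL, a ratio of 0.305 (0.214 to 0.427), below the ratio of the reference. Among reads that equal the reference or differ from it at the ends alone, 3′-lengthened reads were 1.03% in CL and 1.64% in NL, a ratio of shares of 0.630 (0.450 to 0.868). Single substitutions took 7.54% of miR172 reads in CL and 3.997% in NL, and the C1A form was the larger part of them in CL.

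Copper proteins and laccases are the listed targets of miR528, miR397, miR398, miR408 and miR857. Of these 5 families, miR528 and miR397 reached 100 reads, and miR528 was higher on both scales. miR528 is a monocot family that cleaves transcripts of copper-binding oxidases in rice. Its reference had 145318 reads (19640 RPM) in CL and 42295 (5873 RPM) in NL, a ratio of 3.34 (3.31 to 3.38), or 1.92 on the matched scale. The forms around it ranged from 1.86 to 8.19 by RPM, and 34 of the 37 were also higher on the matched scale. The end variants with the most distinct ratios are shown with added bases in capitals.
3′ added A: uggaaggggcaugcagaggagA
3′ added U: uggaaggggcaugcagaggagU
5′ shortened by 1 base: ggaaggggcaugcagaggag
5′ shortened by 1 base and 3′ added A: ggaaggggcaugcagaggagA
5′ shortened by 2 bases: gaaggggcaugcagaggag
5′ added C: Cuggaaggggcaugcagaggag
3′ shortened by 3 bases: uggaaggggcaugcagag

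The form with an added A had 3020 reads (408.2 RPM) in CL and 480 (66.7 RPM) in NL, a ratio of 6.12 (5.56 to 6.76), or 3.52 on the matched scale. The form with an added U had 198 reads in CL and 58 in NL, a ratio of 3.32 (2.47 to 4.53), close to that of the reference. The ratio was thus higher for the A than for the U at the same added position, and their intervals did not overlap. Of the reads that equal the reference or differ at the ends alone, the reference with an added A was 1.93% in CL and 1.07% in NL, and that with an added U was 0.126% in CL and 0.129% in NL. The highest ratio of the 154 sequences was that of the form with a shortened start and an added A, with 143 reads in CL and 17 in NL, a ratio of 8.19 (4.94 to 14.4). An A added at the 3′ end was therefore at the top of the range with and without the first base.

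At the 5′ end, the form shortened by 1 base had 4990 reads in CL and 1271 in NL, a ratio of 3.82 (3.59 to 4.07). The form shortened by 2 bases had 230 reads in CL and 48 in NL, a ratio of 4.66 (3.40 to 6.51). The form with an added C had 194 reads in CL and 42 in NL, a ratio of 4.50 (3.21 to 6.44). At the 3′ end, the forms shortened by 1, 2 and 3 bases had ratios of 3.65, 2.49 and 2.80, with 1285 reads in CL and 343 in NL for the first. The last of these, of 18 nt, had 625 reads in CL and 217 in NL. Forms with a shorter or longer start thus lay above the reference, though the interval of the added C form reached down to it, and forms that lacked 2 or 3 bases at the 3′ end lay below it. The 27 kept single substitutions of miR528 had a median ratio of 3.04 and ran from 1.86 for G6U (82 reads in CL and 43 in NL) to 5.04 for G16U (88 reads in CL and 17 in NL). All substituted reads together were 3.66% of reference and substituted reads in CL and 3.90% in NL.

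**Figure D3:**
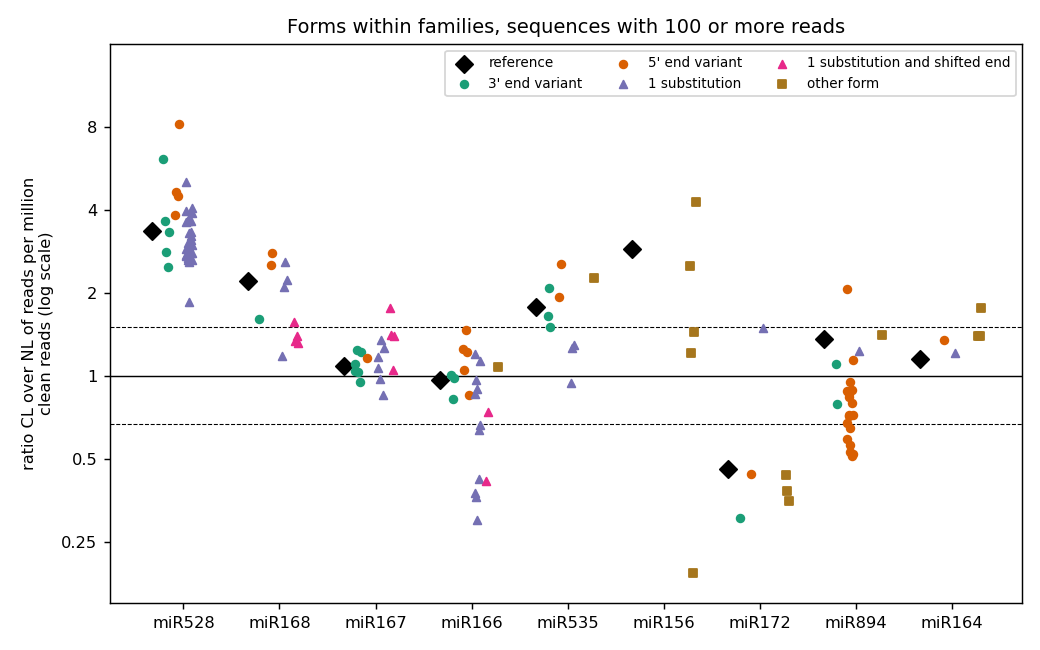
Ratio CL over NL by RPM of every kept sequence of 9 families, log scale, by its relation to the family reference. Diamonds mark the reference, circles end variants, triangles forms with 1 substitution and squares other forms; dashed lines mark 1.5 and 0.667. miR528 spans 1.86 to 8.19, and miR156 spans 0.193 to 4.26, with the C-start form that lies on the miR535 reference as its lowest.

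miR397, which targets laccases in Arabidopsis and rice, had 612 reads in CL and 442 in NL for its most abundant form, a ratio of 1.35 (1.19 to 1.53), or 0.776 on the matched scale. That form, uUGAGGGCagcguugaugaaa, differs from its best match by 4 mismatches and gaps and held 94.6% of the family in CL and 92.9% in NL. The other copper families were near the floor, with 11 reads in CL and 5 in NL for miR408, 2 and 2 for miR398, and 1 and 2 for miR857. No direction can be read from such counts.

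miR168 and miR162 cleave transcripts of ARGONAUTE1 and DICER-LIKE1 in Arabidopsis, and miR403, the other family listed for feedback on the small RNA pathway, was found in neither library. Of the 2 kept, miR168 was called higher by RPM and neither was called on the matched scale. The abundant forms of miR168 differ in their last base, which is in capitals here together with the base added to the last form.
C-ended reference: ucgcuuggugcaggucgggac
A-ended form: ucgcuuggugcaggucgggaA
U-ended form: ucgcuuggugcaggucgggaU
3′ shortened by 1 base: ucgcuuggugcaggucggga
A-ended form without the first base, with an added U: cgcuuggugcaggucgggaAU

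The C-ended reference had 33578 reads (4538 RPM) in CL and 14838 (2060 RPM) in NL, a ratio of 2.20 (2.16 to 2.25), or 1.27 on the matched scale. The A-ended form, C21A, had 18286 reads (2471 RPM) in CL and 15098 (2096 RPM) in NL, a ratio of 1.18 (1.15 to 1.20), or 0.679 on the matched scale. The U-ended form, C21U, had 7131 reads in CL and 3317 in NL, a ratio of 2.09 (2.01 to 2.18). The A-ended form was as abundant as the reference in NL, with a slightly higher RPM, and was well below it in CL. Per 100 reference reads there were 54.5 A-ended reads in CL and 102 in NL, against 21.2 U-ended reads in CL and 22.4 in NL. The reference was 50.7% of the family in CL and 39.3% in NL.

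The difference between the last bases held for shifted starts. Among forms without the first base, the C-ended one had 257 reads in CL and 99 in NL, a ratio of 2.53 (2.00 to 3.22), and the A-ended one had 756 reads in CL and 551 in NL, a ratio of 1.34 (1.20 to 1.49). Among forms without the first 2 bases, the C-ended one had 132 reads in CL and 46 in NL, a ratio of 2.79 (1.98 to 3.997), and the A-ended one had 79 reads in CL and 55 in NL, a ratio of 1.40 (0.978 to 2.01). C-ended forms were thus above A-ended ones at each of 3 starts, though without the first 2 bases the intervals overlapped. The A-ended form that lacks the first base and carries an added U had 1164 reads in CL and 722 in NL, a ratio of 1.57, or 0.903 on the matched scale. The form shortened by its last base, which lacks the base in which these forms differ, had 1926 reads in CL and 1167 in NL, a ratio of 1.61, or 0.925 on the matched scale. The family ratio of 1.71 by RPM and 0.985 on the matched scale is a mean over these forms. miR162, uCGAUAAAccucugcauccgg, had 508 reads in CL and 338 in NL, a ratio of 1.46 (1.27 to 1.68), or 0.842 on the matched scale.

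Auxin signalling is the listed role of miR160, miR167, miR390, miR393 and miR847, of which 2 had 100 reads, neither called by RPM and both lower on the matched scale, where 36.0% of all 25 families were lower. miR167 cleaves transcripts of auxin response factors in Arabidopsis, and most of its leaf reads were 22 nt long, 90.05% in CL and 90.5% in NL. The forms are shown with bases that differ from the reference in capitals.
22 nt form ending in U: ugaagcugccagcaugaucugU
21 nt form without the last base: ugaagcugccagcaugaucug
21 nt form ending in A: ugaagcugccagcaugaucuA
24 nt form: ugaagcugccagcaugaucugUUC

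The 22 nt reference had 33605 reads (4542 RPM) in CL and 30209 (4195 RPM) in NL, a ratio of 1.08 (1.07 to 1.10), or 0.623 on the matched scale. The 22 nt form ending in U, A22U, had 9590 reads in CL and 7989 in NL, a ratio of 1.17 (1.13 to 1.20). The 21 nt form without the last base had 784 reads in CL and 617 in NL, a ratio of 1.24 (1.11 to 1.38). These 3 forms thus lay between 1.08 and 1.24 by RPM, and below 1 on the matched scale. The 21 nt form ending in A, G21A with the last base missing, had 658 reads in CL and 364 in NL, a ratio of 1.76 (1.55 to 2.01), or 1.01 on the matched scale. It is the only one of the 18 kept miR167 forms past 1.5 by RPM, and it equals Arabidopsis miR167a. The 24 nt form had 213 reads in CL and 148 in NL, a ratio of 1.40 (1.13 to 1.74), and all 24 nt reads of the family together had 1.37. Both were below 1 on the matched scale. The lowest ratio of the family, 0.850, was that of A14C with 76 reads in CL and 87 in NL. Reads of 21 nt made up 4.24% of the family in CL and 3.59% in NL. miR390, which starts the trans-acting siRNAs that target auxin response factors, had 279 reads in CL and 296 in NL for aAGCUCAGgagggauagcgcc, a ratio of 0.917 (its family total was at 0.896).

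Leaf polarity, organ boundaries and meristems are the listed roles of miR165, miR166, miR164 and miR394, of which 3 had 100 reads, none called by RPM and 2, miR165 and miR166, lower on the matched scale, where 36.0% of all 25 families were lower. miR166 cleaves transcripts of HD-ZIP III factors, which set the upper side of leaves. Its reference had 23109 reads (3123 RPM) in CL and 23205 (3222 RPM) in NL, a ratio of 0.969 (0.952 to 0.987), or 0.558 on the matched scale. The level of the reference was thus nearly equal by RPM, whereas 7 of the 23 kept forms were lower in CL and none higher. The lower forms carry a change at position 11, 14 or 15, and those with the lowest ratios are shown with the changed base in capitals.
A15U: ucggaccaggcuucUuucccc
C14U: ucggaccaggcuuUauucccc
A15C: ucggaccaggcuucCuucccc
A15U without the first base: cggaccaggcuucUuucccc
A15G: ucggaccaggcuucGuucccc

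The A15C form had 662 reads (89.5 RPM) in CL and 1718 (239 RPM) in NL, a ratio of 0.375 (0.342 to 0.410), or 0.216 on the matched scale. The A15U form had 63 reads in CL and 204 in NL, a ratio of 0.301 (0.223 to 0.401), and the A15G form had 67 reads in CL and 154 in NL, a ratio of 0.423 (0.313 to 0.568). All 3 other bases at position 15 were therefore lower in CL. The same A15U change without the first base had 35 reads in CL and 82 in NL, a ratio of 0.415. With the last base missing, A15C had 50 reads in CL and 66 in NL, a ratio of 0.737, which was not past the limit. Next to it, C14U had 35 reads in CL and 94 in NL, a ratio of 0.362, while C18U had 140 reads in CL and 141 in NL, a ratio of 0.966.

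Summed over full-length reads with a single change, position 15 gave 792 reads in CL and 2076 in NL. This was 3.43 per 100 reference reads in CL and 8.95 in NL, a ratio of 0.371 (0.342 to 0.403) by RPM. The substituted share of reference and substituted reads was 7.13% in CL and 11.9% in NL. Forms of miR528 changed at position 15 stood in nearly the same proportion to their reference in both libraries, with a ratio of 1.06 between the proportions. They were rare, at 0.244 per 100 reference reads in CL and 0.229 in NL. A lower proportion in CL was not particular to miR166. Per 100 reference reads, C7A of miR535 stood at 5.89 in CL and 11.1 in NL, and C21A of miR168 at 54.5 and 102. A22U of miR167 (28.5 in CL and 26.4 in NL) and C1A of miR172 (7.55 and 2.33) went the other way. The plot of substitutions by position shows the peak at position 15 of miR166 in both libraries and its greater height in NL. A change at this position lies outside bases 2 to 8.

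**Figure D4:**
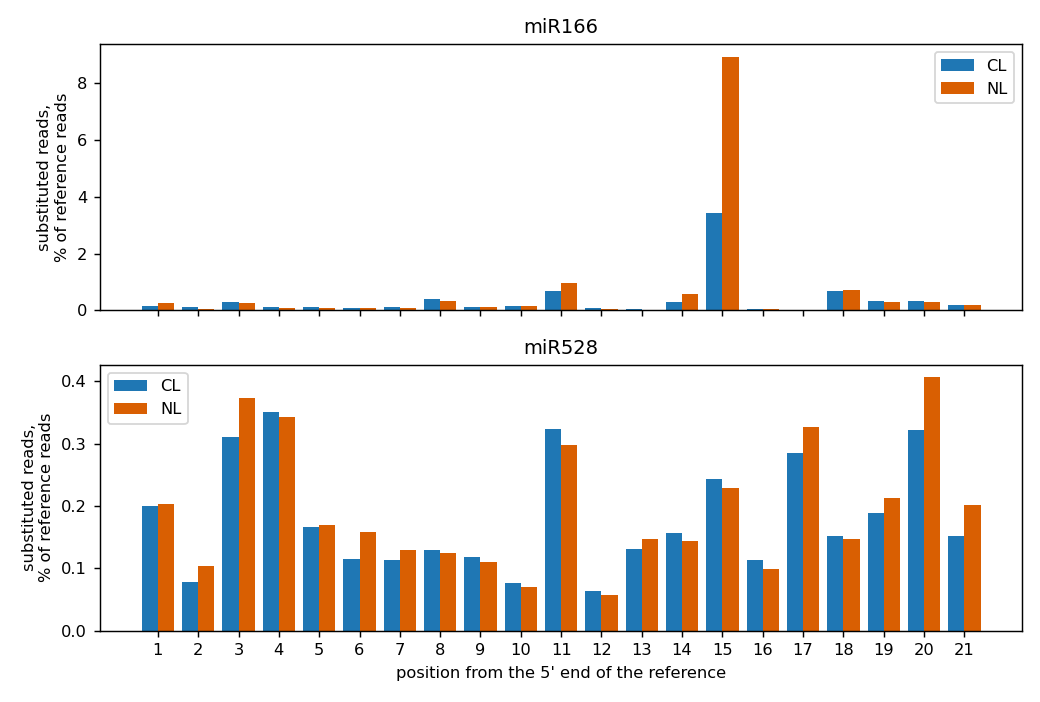
Reads with a single substituted base as a percent of the reads of the reference, by position from the 5′ end, in CL (blue) and NL (orange), for miR166 (top) and miR528 (bottom), with separate vertical scales. At position 15 of miR166 the bars stand at 3.43% in CL and 8.95% in NL. The highest miR528 bar is 0.407%, in NL at position 20. The miR528 bars are lower in CL at some positions (position 6, 0.115% in CL and 0.158% in NL) and higher at others (position 16, 0.114% and 0.0993%).

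Starts of miR166 shortened by 1 base had 645 reads in CL and 500 in NL, a ratio of 1.26 (1.12 to 1.41), and starts shortened by 2 bases had 189 reads in CL and 125 in NL, a ratio of 1.47 (1.17 to 1.86). Ends shortened by 1, 2 and 3 bases had ratios of 0.984, 1.01 and 0.827, with 2582 reads in CL and 3039 in NL for the 18 nt form. Shortened starts were thus above the reference and the 18 nt form below it. Counted over all ends, starts shortened by 1 and 2 bases were at 0.716 and 0.870 on the matched scale, against 0.553 for the unshifted start. The related miR165 had 49 reads in CL and 61 in NL over all its forms, a ratio of 0.782 (0.526 to 1.16), which does not exclude 1.

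miR164, which cleaves transcripts of NAC factors at organ boundaries, had 3847 reads (520 RPM) in CL and 3244 (450 RPM) in NL for its reference, a ratio of 1.15 (1.10 to 1.21), or 0.664 on the matched scale. The form ending in UU, uggagaagcagggcacgugUU, had 964 reads in CL and 675 in NL, a ratio of 1.39 (1.26 to 1.54). Without its first base this form had 80 reads in CL and 44 in NL, a ratio of 1.77 (1.21 to 2.62), the highest of the 6 kept forms, against 1.35 for the reference without its first base (449 reads in CL and 323 in NL). Forms ending in UU were thus above forms ending in CA at both starts, though with the first base missing the intervals overlapped. The full-length UU form was below 1 on the matched scale. miR394, which acts in the meristem, had 7 reads in CL and 4 in NL.

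The remaining roles held few forms. miR159, which restrains GAMYB factors in the gibberellin response, had 541 reads in CL and 321 in NL for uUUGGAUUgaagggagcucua, a ratio of 1.64 (1.43 to 1.89), or 0.944 on the matched scale. Its form shortened by 3 bases at the 3′ end had 234 reads in CL and 125 in NL, a ratio of 1.82. These were both past 1.5 by RPM, and the first was below 1 on the matched scale. The related miR319, which targets TCP factors, had 14 reads in CL and 4 in NL, a ratio of 3.41 (1.07 to 14.2). Among regulators of GRAS and growth-regulating factors, miR171, uUGAGCCGcgucaauaucucc, had 94 reads in CL and 122 in NL, a ratio of 0.750, and miR396, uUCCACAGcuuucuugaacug, had 22.2 RPM in CL and 29.2 RPM in NL, a ratio of 0.760. The median of the 2 families was 0.807 by RPM and 0.465 on the matched scale, below those of all 25 families. Other sequences that the study names miR396, miR159 and miR166 were not analysed here, so the values given cover a part of each family, and for miR396 and miR159 the direction of the whole family cannot be read from them. For nutrients, miR169, a regulator of NF-YA factors, had 88 reads in CL and 108 in NL for cAGCCAAGgaugacuugccga, a ratio of 0.793.

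Families of the auxin and nutrient lists below 100 reads could not be called. miR160, which targets auxin response factors, had 33 reads in CL and 16 in NL, a ratio of 2.01 (1.07 to 3.91), and miR393, which targets auxin receptors, had 18 reads in CL and 32 in NL, a ratio of 0.547 (0.289 to 1.01). The phosphate family miR399 had 37 reads in CL and 46 in NL, a ratio of 0.783 (0.494 to 1.23). The sulfate family miR395 had 5 reads in CL and 4 in NL. miR2111 had 1 read in CL and 0 in NL, and miR827 and miR847 had 0 in CL and 1 in NL each.

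A further list held 7 names grouped as resembling ribosomal or transfer RNA fragments. That resemblance was not checked here for any of them, miR1318 included. Of the 7, 6 were kept, 4 of them, with miR1318, higher by RPM and none lower, beside 44.0% higher and 4.0% lower over all 25 families. On the matched scale 1 was higher and 1 lower, beside 8.0% and 36.0% of all families. miR2911 had 297 reads (40.1 RPM) in CL and 94 (13.1 RPM) in NL for gCUGGGGGacggacuggg, a ratio of 3.08 (2.43 to 3.92), or 1.77 on the matched scale. The total of the family, 558 reads in CL and 187 in NL, had a ratio of 2.90. The miR1318 form uGCAGGAGagaugacaccggcc had 23.1 RPM in CL and 15.6 RPM in NL, a ratio of 1.49, or 0.855 on the matched scale. miR2910 had 26.1 RPM in CL and 15.1 RPM in NL over all its forms, a ratio of 1.72, or 0.992 on the matched scale. miR2915 had 106 reads in CL and 64 in NL, a ratio of 1.61, or 0.928 on the matched scale, and miR2916 had 95 in CL and 68 in NL, a ratio of 1.36. miR2914 was below the limit with 35 reads in CL and 34 in NL. miR1023, in no list, had 91 reads in CL and 62 in NL, a ratio of 1.43, or 0.822 on the matched scale.

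Most reads of miR894 were not the reference, which held 25.9% of the family in CL and 18.4% in NL. The same was so in both libraries for the small families miR2910, miR2915, miR2916, miR1023 and miR165. The miR894 family had 7612 reads in CL and 7666 in NL, a ratio of 0.966 (0.936 to 0.998), and of its 23 kept forms 1 was higher and 6 were lower by RPM. The forms form a ladder with starts from 2 bases missing to 4 bases added and ends with up to 3 bases missing, and its corners are printed with added bases in capitals.
reference: guuucacgucggguucacca
2 bases missing at the start: uucacgucggguucacca
4 bases added at the start: GUUCguuucacgucggguucacca
1 base added at the start, 3 missing at the end: Cguuucacgucggguuca
3 bases added at the start, 3 missing at the end: UUCguuucacgucggguuca

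The reference had 1969 reads in CL and 1408 in NL, a ratio of 1.36 (1.27 to 1.46), or 0.783 on the matched scale. The form with 2 bases missing at the start had 379 reads in CL and 179 in NL, a ratio of 2.06 (1.72 to 2.48), or 1.19 on the matched scale. The form with 4 bases added had 382 reads in CL and 417 in NL, a ratio of 0.892 (0.774 to 1.03). Longer starts thus stood lower than the reference. The lowest form had 1 base added at the start and 3 missing at the end, with 110 reads in CL and 210 in NL, a ratio of 0.510 (0.401 to 0.645), and the form with 3 bases added and 3 missing had 69 reads in CL and 129 in NL, a ratio of 0.521. Counting all reads of a given start and end, with the reference end the ratio ran from 0.835 to 2.06 over the 7 starts from 2 missing to 4 added. With 1 base missing at the end it ran from 0.699 to 1.10, with 2 missing from 0.517 to 0.792, and with 3 missing from 0.514 to 0.642. At each start with more than 1 of these ends, the form with an intact end stood above the forms with up to 3 bases missing. Combinations outside this range went the other way, with 0.894 for 2 bases added and 4 missing (34 reads in CL and 37 in NL) against 0.835 for the intact end, and 1.70 for 5 added and 1 missing (7 reads in CL and 4 in NL) against 0.584. Reads with a longer start were 46.9% of the reads that differ at the ends alone or not at all in CL, against 58.8% in NL, and reads with a shortened start were 12.9% in CL and 9.14% in NL.

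**Figure D5:**
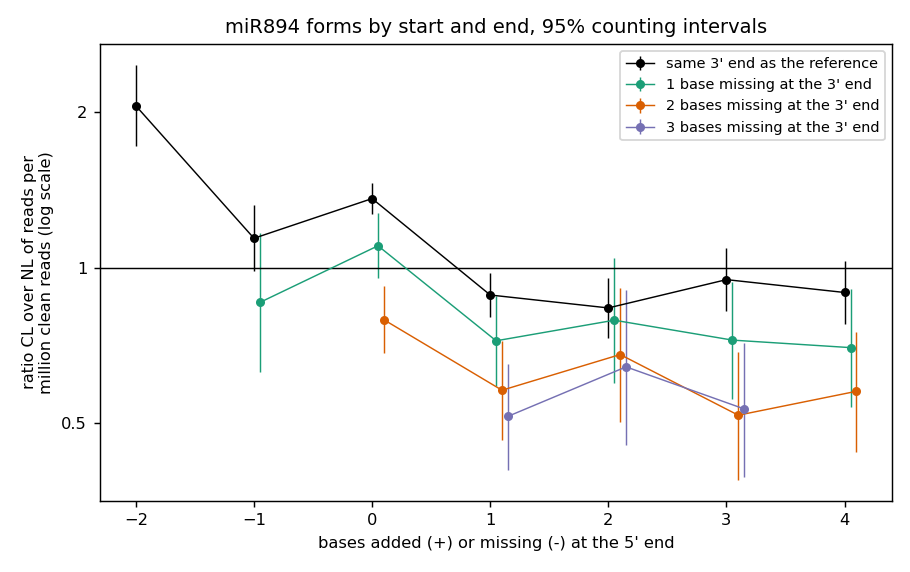
Ratio CL over NL by RPM (log scale) of miR894 reads by the number of bases added or missing at the 5′ end (horizontal) and missing at the 3′ end (colour), with 95% counting intervals. The line of intact 3′ ends runs from 2.06 at 2 missing bases to 0.895 at 4 added bases, and the lines with 2 or 3 missing 3′ bases lie below 0.80.

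Across the matched reads, 21 nt was the main length, with 75.4% of reads in CL and 67.1% in NL. Reads of 22 nt were 12.5% in CL and 18.6% in NL, and 18 nt reads were 1.46% in CL and 2.42% in NL. Without miR528, the share of 21 nt was 63.7% in CL and 60.01% in NL and that of 22 nt 19.5% in CL and 23.2% in NL, so the differences were smaller but in the same direction. Within miR528 the 22 nt class was 2.21% in CL and 1.30% in NL, the opposite direction to the total. Reads that start with U were 88.5% in CL and 85.3% in NL, and those that start with A were 0.705% in CL and 1.59% in NL. Without miR528 the U class was 83.3% in CL and 82.4% in NL, and among perfect matches alone its difference reversed to -1.45 percentage points for CL minus NL. The A class was lower in CL also without miR528, at 1.13% in CL and 1.99% in NL. Of all A-start reads, miR172 alone held 1329 of 2849 in CL and 2417 of 3602 in NL, and the class was not computed without it. Perfect matches to a known miRNA took 62.1% of reads in CL and 50.0% in NL. The miR528 reference, itself a perfect match, made up 145318 of these 251177 reads in CL and 42295 of 113191 in NL.

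End variants were set against the reference in the 13 families with at least 1000 reads. Reads with a shortened start took a larger share in CL than in NL in 10 of the 13 families, but 9 of the 13 families had 100 or more such reads. Some of the 10 rest on few, with 2 reads in CL and 0 in NL for miR397, 14 and 5 for miR159, and 26 and 11 for miR162. The interval of the ratio of shares lay above 1 in 3 of the 13 families and below 1 in 0. In miR528 the shortened starts were 3.48% in CL and 3.02% in NL. In miR166 they were 3.14% in CL and 2.36% in NL, and the third family was miR894. This tally took miR156 and miR157 as separate families, though miR157 is the miR156 reference without its first base. As a shortened start of miR156 it went the other way, with a ratio of 1.83 by RPM against 2.89 for the miR156 reference. The joined share was not computed, so the count of 0 holds for the families as named. Shortened 3′ ends took a larger share in CL in 6 families and a smaller one in 7, and the interval lay above 1 in 0 and below 1 in 3, namely miR168, miR894 and miR162. In miR168 they were 5.598% in CL and 7.65% in NL, a ratio of shares of 0.732 (0.681 to 0.786). In miR162 they rest on 3 reads in CL and 9 in NL. Lengthened 3′ ends were more frequent in CL in miR528, at 2.27% in CL and 1.35% in NL, and less frequent with an interval below 1 in miR172 and in miR156, where they were 0.209% in CL and 0.399% in NL. Summed over families, 5′ variants of any kind were 4.45% in CL and 5.63% in NL, a direction that reversed without miR894.

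Sequences found in a single leaf library were many and rare. CL held 3003 sequences not found in NL, with 0.9304% of its matched reads and at most 10 reads each, and NL held 2229 not found in CL, with 1.15% of its matched reads and at most 15 reads each. The sequence with 10 reads in CL was a miR2911 form. Among the sequences analysed, matches to passenger strands, the partner cut from the other arm of the hairpin, numbered 51 sequences with 36 reads in CL and 25 in NL, and none had more than 3 summed reads. By RPM, 2 families, miR156 and miR894, held both a higher and a lower form. The lower miR156 form is the C-start form that lies on the miR535 reference. Once it is counted with miR535, no lower form is left in miR156, but miR535, with 7 forms called higher, then holds both.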

How the data were processed

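The deposited tables give a read count for every unique sequence. To make them the authors trimmed adaptors, discarded contaminants, poor reads, polyA and anything under 18 nt, merged identical reads and aligned the unique sequences by BLAST (version not given in the sources used here) to miRBase release 15. Sums of up to 5 mismatches and gaps occur and were kept. Levels use the totals of clean reads that the study states. Members, lists and rules were chosen with earlier results of these data known. Named were all families and sequences with many reads, the references, the 10 highest and 10 lowest ratios, the extremes within families and the main end variants, and the forms of miR156, miR168, miR166, miR172 and miR894 set side by side were chosen for display once their values were known. A form was laid on its reference without gaps, with ends shifted by at most 5 bases and an overlap of at least 15 bases. Intervals are exact conditional binomial for ratios and Wilson for shares. The code was tested on simulated data. No test between conditions was made. Python 3.11.15, numpy 2.4.6, pandas 2.3.3, scipy 1.17.1 and matplotlib 3.10.9 were used. No genome was used, so added bases were not assigned to a precursor, and other families and libraries were not analysed here.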

Additional observations from a re-analysis of the deposited data

How the results depend on the processing

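All results come from 1 library a side, so no replicate could be left out. No paired analysis was possible because each leaf condition has a single library. By RPM there were 11 higher and 1 lower families, 63 higher and 20 lower sequences, and 2 families with forms called both ways, and only the counts that moved by over 1.5 times are given here. On the matched scale these were 2, 9, 38, 61 and 1. With matched reads other than miR528 as the total, 3 families were higher, 4 lower, and 36 sequences lower. With the median ratio of abundant sequences set to 1, 4 families were higher and 3 lower. With a limit of 20 reads there were 3 lower families, 220 higher and 53 lower sequences and 8 families called both ways, and with 1000 reads 6 higher families, 15 higher and 3 lower sequences and 0 families called both ways. With a ratio limit of 2 there were 3 higher families, 12 lower sequences and 1 family called both ways. Perfect matches alone gave 5 higher and 0 lower families, 8 higher and 0 lower sequences and 0 families called both ways, with fewer sequences left. The miR172 reference, whose mismatches and gaps sum to 1, was among those left out. The A-start miR172 form with the sequence of Arabidopsis miR172a had a ratio of 1.49 by RPM, so the lower call of miR172 rests on forms that are not perfect matches. With at most 2 mismatches and gaps there were 7 higher families and 0 called both ways, and with 20 to 22 nt alone 1 was called both ways. Where the whole interval had to lie past 1.5 or 0.667, 7 families were higher and 13 sequences lower. Scaling to high-quality reads moved no count by that much.

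The ratio of all matched reads, 1.74, was 1.67 per high-quality read, 1.31 without miR528 and 2.16 for perfect matches. The difference CL minus NL in the 21 nt share, 8.34 percentage points, was 3.65 without miR528, 0.703 for perfect matches and 1.84 for unique sequences. That of the 22 nt share, -6.16 points, was -3.73 without miR528, -0.0305 for perfect matches, -6.43 with at most 2 mismatches and gaps and -0.0541 for unique sequences. That of reads starting with U, 3.19 points, was 0.988 without miR528, 2.94 with at most 2 mismatches and gaps, 2.40 for unique sequences and, reversed, -1.45 for perfect matches. That of 3′ variants, -2.54 points, was -2.20 without miR528, -0.183 as a median over families, -1.96 with 1 mismatch allowed and -1.58 with ends shifted by at most 2 bases. That of 5′ variants, -1.18 points, was -1.33 without miR528, -1.04 with 1 mismatch allowed and -0.591 with ends shifted by at most 2 bases. It reversed to 0.160 as a median over families and to 0.192 without miR894, an alternative chosen after seeing the data, as was the joining of miR157 to miR156. Where not stated, the cause was not tested.

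On the matched scale 7 families reversed from called higher to just below 1, namely miR168 (0.985), miR535 (0.979), miR159 (0.969), miR1318 (0.890), miR2910 (0.992), miR529 (0.985) and miR2915 (0.928). So did 4 sequences, the miR168 reference without its last base (0.925), the A-ended miR168 form without its first base and with an added U (0.903), the miR159 reference (0.944) and the miR535 reference with an added U (0.950, with 117 reads in CL and 69 in NL). Depth was too low to place families under 100 reads, such as miR399 with an interval of 0.494 to 1.23.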

Other observations

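The kept sequences comprised 54 forms with 1 substitution, of which 30 were higher and 6 lower by RPM, 34 forms with a shifted 5′ end, of which 9 were higher and 7 lower, and 22 with a shifted 3′ end, of which 10 were higher and 1 lower, beside 40.9% higher and 13.0% lower over all 154 sequences. miR528 holds 27 of the 54 substituted forms, all of them higher, and so 27 of the 30. Over all reads of the kept families, the references took 73.2% in CL and 65.7% in NL. Forms with 1 substitution took 12.1% in CL and 16.1% in NL. These shares lean on miR528, which held 40.5% of matched reads in CL and 20.8% in NL. Within miR528 the reference took 88.8% in CL and 89.8% in NL, and forms with 1 substitution 3.37% and 3.64%. Other families went both ways. The reference took 50.7% in CL and 39.3% in NL of miR168, but 67.4% and 68.9% of miR167. In miR162, reads of the reference with an added U numbered 50 in CL and 32 in NL, 7.87% of its reads that differ at the ends alone or not at all in CL and 7.36% in NL, a larger share than the added U took in miR528. The miR166 form cGGCCCAGgcuucuuucccc was read 0 times in CL and 11 times in NL, and cGCUUGGUgcaggucgggacu of miR168 was read 9 times in CL and 0 times in NL.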
